A study of Rattus norvegicus with 19 samples.

Results

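Nitric oxide synthesis and arginine supply were followed through 7 genes, Nos1, Nos3, Ass1, Asl, Ddah1, Ddah2 and Gch1, in the paraventricular nucleus (PVN) and the supraoptic nucleus (SON) of the rat hypothalamus. The genes were chosen by name, and every probe set whose platform annotation gives a single symbol among them was taken, which made 9 probe sets of the 31042 analysed and 7 of the 14217 genes so named. The array set compares the spontaneously hypertensive rat (SHR) with its normotensive control strain, the Wistar Kyoto rat (WKY). Each strain gave 5 PVN arrays, while the SON was measured on 5 arrays of WKY and 4 of SHR, and the rats were untreated and labelled as 12 weeks old. The study's methods give male inbred animals, nuclei cut from brain slices and pooled, and RNA amplified before hybridisation. Both strains are inbred lines, so a strain difference covers every locus at which the lines differ, with or without a bearing on blood pressure. The labels do not say which animals stand behind an array, so p-values measure only the spread between arrays, which may be technical. Array medians lay between 35.9 and 46.5 signal units before they were made equal, and all 19 arrays were kept. Their mean correlation with arrays of the same group ran from 0.954 to 0.98.

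Nitric oxide is a gas that neurones and blood vessels make from the amino acid arginine. Nitric oxide synthases, the products of Nos1 in neurones, Nos2 in immune activated cells and Nos3 in endothelium, turn arginine into citrulline and nitric oxide. Argininosuccinate synthase (Ass1) and argininosuccinate lyase (Asl) turn the citrulline back into arginine. The dimethylarginine dimethylaminohydrolases (Ddah1, Ddah2) break down asymmetric dimethylarginine, an inhibitor of the synthases, and GTP cyclohydrolase (Gch1) opens the synthesis of tetrahydrobiopterin, their cofactor. Magnocellular neurones of the PVN and SON, which make vasopressin and oxytocin, are known to contain neuronal nitric oxide synthase, and nitric oxide restrains the firing of both these and the presympathetic PVN neurones. No gene of the magnocellular, neuronal, glial or endothelial marker lists lay at the floor, the lowest value kept (log2 1.91), on all arrays of a group. The neuropeptide genes Crh, Trh and Sst, markers of parvocellular PVN neurones, were lower in the SON than in the PVN in both strains, with log2 differences from -4.79 to -3.60. Of the other markers on that list, Sim1 was higher in the SON in WKY (0.39), and Otp lay near the floor in every group.

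The results turn on Ass1, Nos3 and Gch1, and the bases before a start site of each are shown here to place these genes. The sequences are the 250 bases before the start site that RefSeq gives for the assembly GRCr8, written 5′ to 3′ on the gene's strand. Capitals mark 3 short promoter motifs searched on both strands in windows of 300 bases, 250 before and 50 after the start. These were the GC box core GGGCGG, held by 33.1% of the 33469 RefSeq windows, CCAAT, held by 37.5%, and TGACG, the cyclic AMP response element core, held by 21.2%.
Ass1, chr3:35149480-35149729, plus strand: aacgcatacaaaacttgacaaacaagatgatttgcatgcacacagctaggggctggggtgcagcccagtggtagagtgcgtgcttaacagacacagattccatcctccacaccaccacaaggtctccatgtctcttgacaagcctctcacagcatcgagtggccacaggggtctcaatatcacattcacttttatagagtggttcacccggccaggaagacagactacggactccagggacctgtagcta
Nos3, chr4:11706582-11706831, minus strand: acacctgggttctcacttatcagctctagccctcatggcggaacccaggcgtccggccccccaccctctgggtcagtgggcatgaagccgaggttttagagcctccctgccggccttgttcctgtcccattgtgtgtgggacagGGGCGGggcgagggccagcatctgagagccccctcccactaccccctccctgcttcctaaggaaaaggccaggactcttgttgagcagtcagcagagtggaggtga
Gch1, chr15:22917413-22917662, minus strand: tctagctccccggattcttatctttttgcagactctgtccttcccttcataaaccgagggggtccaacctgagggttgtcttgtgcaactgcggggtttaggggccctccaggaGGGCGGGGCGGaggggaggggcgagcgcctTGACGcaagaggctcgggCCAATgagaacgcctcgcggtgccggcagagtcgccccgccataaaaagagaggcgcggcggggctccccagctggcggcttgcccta
The Gch1 window held 2 GC box cores, which overlap by a base, with 1 CCAAT and 1 TGACG. The Nos3 window held 1 GC box core, and the Ass1 window held none of the 3 motifs. The Ass1 start site of the table lies 4965 bases inside the gene as RefSeq draws it and the Nos3 start site 23 bases inside, so other starts exist upstream. A match is a description of letters, and its absence says only that these letters are not in this window. The windows of the 3 genes had 51%, 63% and 63.3% G and C in the order printed, and the median of all windows was 51.7%.

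Ass1, the enzyme that commits citrulline to arginine, was the member that differed between the strains, and it did so in the SON. On the log2 signal scale, the 5 WKY SON arrays read 8.24, 8.17, 8.09, 8.46 and 8.67, and the 4 SHR SON arrays read 7.59, 7.48, 7.27 and 7.60. Every SHR SON array lay below every WKY SON array. The mean was 8.33 ± 0.24 (SD, n = 5) in WKY and 7.48 ± 0.15 (SD, n = 4) in SHR, a difference of -0.84 (SE 0.13), and limma gave an adjusted p of 0.00421. This is a 1.79-fold lower signal in SHR, short of 2-fold. Ass1 passed in all 18 other settings, with differences between -0.90 and -0.76. In the SON, 3.62% of all 16190 probe sets tested passed and 2.33% passed as lower in SHR, and among the members 1 of 6 probe sets tested passed.

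In the PVN the Ass1 strain difference was small. The WKY PVN arrays read 7.89, 7.70, 8.21, 8.17 and 7.96, and the SHR PVN arrays read 8.02, 7.81, 7.79, 7.79 and 7.83. The strains overlapped, with a difference of -0.14 (SE 0.12, limma adjusted p = 0.675). The interaction, the strain effect of the SON less the strain effect of the PVN, was -0.70 (SE 0.17), with an unadjusted p of 0.000613 and a limma adjusted p of 0.238. The Ass1 difference in the SON is therefore not shown to differ from that in the PVN, and its adjusted p stayed between 0.0704 and 0.421 in the 26 other settings. The interaction passed for 0.0819% of all probe sets, 14 of 17095, and for 0 of the 6 member probe sets tested, of which 1, Ass1, had an unadjusted p under 0.05.

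Between the nuclei the Ass1 differences had opposite signs in the strains. In WKY it was higher in the SON than in the PVN by 0.34 (SE 0.12, limma adjusted p = 0.0384), with overlapping arrays. In SHR it was lower in the SON by 0.36 on the log2 scale (SE 0.13, limma adjusted p = 0.0352), and every SHR SON array lay below every SHR PVN array. These calls stood in 19 of 28 other settings in WKY and in 20 of 28 in SHR, and without the filter their adjusted p values were 0.0614 and 0.0574. The WKY call was lost without PVN array 1, 2 or 5 or SON array 4 or 5 of that strain (limma adjusted p from 0.0671 to 0.117). The SHR call was lost without PVN array 1, 2 or 5 or SON array 2 or 3 of that strain (limma adjusted p from 0.0501 to 0.129). The test of one nucleus difference against the other is the interaction given above, which did not pass. The plot of the members by array shows the order of the Ass1 group means, WKY SON highest, then WKY PVN, SHR PVN and SHR SON, of which the PVN strains in the middle overlap and WKY SON overlaps WKY PVN.

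**Figure D1:**
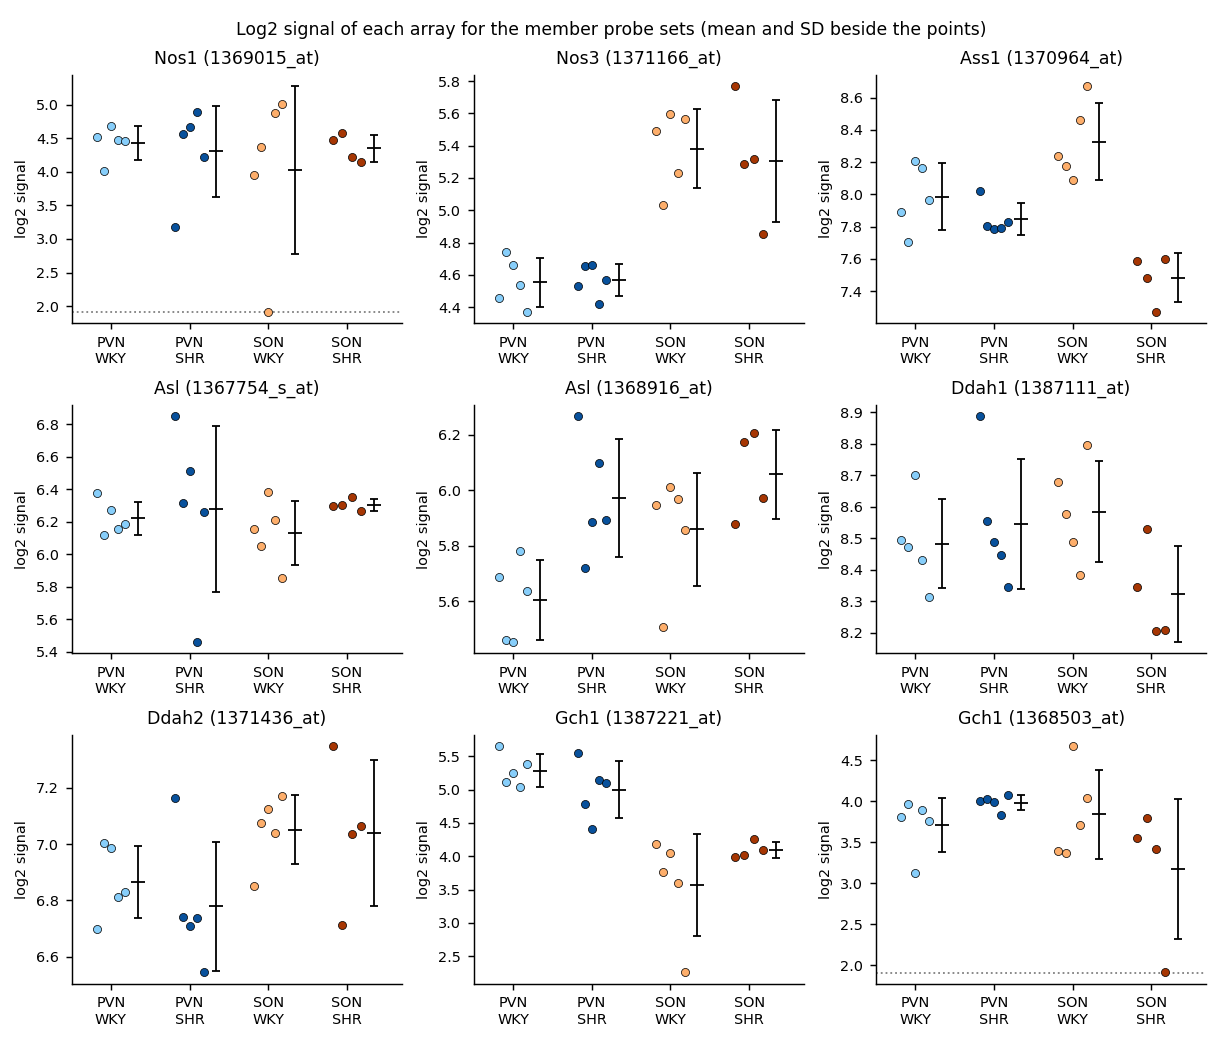
Log2 signal (vertical axis, own range in each panel) of every array for the 9 member probe sets in the 4 groups, with the group mean and SD as a bar beside the points and a dotted line at the floor where an array lies on it. Ass1 reads 7.27 to 7.60 in SHR SON and 8.09 to 8.67 in WKY SON, Nos3 lies higher in the SON than in the PVN, and the first Gch1 probe set lies lower in the SON.

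Several marker lists moved with the lower Ass1 signal of the SHR SON. The summed level of 10 neuronal markers (log2 of the summed signal) ran from 13.11 to 13.26 on SHR SON arrays and from 13.26 to 13.54 on WKY SON arrays, ranges that meet but do not overlap, with 0 of 9 tested genes passing and a median difference of -0.24. Bright genes weigh most in this sum, and Gad1 and Syt1 had higher SHR means, at 9.17 and 5.10 beside 9.04 and 4.98 in WKY. The summed level of 6 monoamine neurone markers ran from 9.20 to 9.48 in SHR and from 9.75 to 10.30 in WKY. Tyrosine hydroxylase (Th) was lower by 0.80 on the log2 scale (limma adjusted p = 0.0220), 1 of 4 tested. Th weighs most in this sum, with a WKY SON mean of 9.65 beside 6.41 for Ddc, the next brightest. Ddc and Slc18a2 also had lower SHR means, and Dbh means were 4.10 in SHR and 4.13 in WKY. Slc6a3 ran the other way, at 5.57 in SHR and 5.20 in WKY, as did Slc6a4 at 2.98 and 2.90. The 5 parvocellular markers summed to 7.99 to 8.26 in SHR and 8.58 to 9.07 in WKY. Sim1, a transcription factor gene on that list, was lower in SHR by 0.97 on the log2 scale (limma adjusted p = 0.00969), 1 of 3 tested. These markers also separated the strains in the PVN, at 11.91 to 12.10 in SHR and 12.16 to 12.49 in WKY. Sim1 means there were 6.19 in SHR and 7.13 in WKY, while Ass1 did not pass there. The 8 meningeal fibroblast markers summed to 11.43 to 12.71 in SHR and 11.05 to 11.71 in WKY, and 3 of 8 were higher in SHR. Magnocellular markers overlapped, at 13.38 to 13.67 in SHR and 13.31 to 14.16 in WKY. The part of the tissue's cell make-up in the Ass1 difference was not tested, and in pooled tissue fewer cells of a type and less RNA per cell cannot be told apart.

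Asl, which releases arginine from argininosuccinate, has 2 probe sets under its symbol. The probe set 1368916_at carries a RefSeq accession of Asl. It read 5.69, 5.46, 5.45, 5.78 and 5.64 in WKY PVN and 6.27, 5.72, 5.89, 6.10 and 5.89 in SHR PVN. Only the lowest SHR array, at 5.72, lay within the WKY range, and the difference of 0.37 (SE 0.12) had a limma adjusted p of 0.158. In the SON the strain difference was 0.20 (limma adjusted p = 0.417), and between the nuclei it was 0.26 in WKY and 0.08 in SHR, with adjusted p values of 0.121 and 0.661. The other probe set, 1367754_s_at, is annotated as Asl, but RefSeq gives its accession to Hnrnpab, an RNA-binding protein. Over the 19 arrays it correlated with the Hnrnpab probe set 1370309_a_at at r = 0.60, and their deviations from the group means at r = 0.82. This describes arrays that share their scaling and is not specific to Hnrnpab, since its deviations correlated with those of Fbxo38 at r = 0.89. Its differences between groups ran from -0.09 to 0.17, none passed, and it is not read as Asl here. The counts of member probe sets tested still include 1367754_s_at, since they follow the platform annotation.

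In the SON the measured strain difference of Asl 1368916_at was above 0 and that of Ass1 below 0, and only the latter passed. The plot of the member differences sets these side by side.

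**Figure D2:**
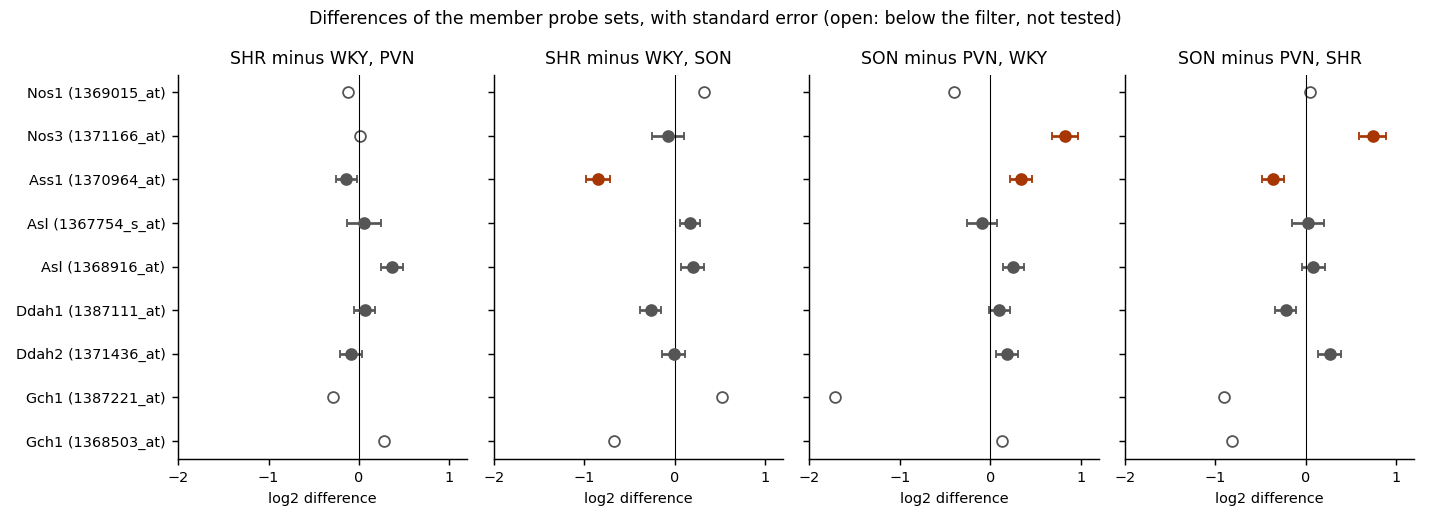
Log2 difference (horizontal axis, one panel per comparison) of each member probe set, with its standard error where it was tested. Red points passed an adjusted p of 0.05, grey points did not, and open points lay below the filter on low signals. Among the tested points, Ass1 stands apart at -0.84 in the SON strain comparison, and Nos3 at 0.83 and 0.74 in the nucleus comparisons. The open points of Gch1 1387221_at lie further out in the nucleus comparisons, at -1.72 in WKY and -0.91 in SHR.

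Nos3, the endothelial synthase, was higher in the SON than in the PVN in both strains. The WKY arrays read 4.45, 4.74, 4.66, 4.54 and 4.37 in the PVN and 5.49, 5.03, 5.59, 5.23 and 5.57 in the SON. The SHR arrays read 4.53, 4.65, 4.66, 4.42 and 4.57 in the PVN and 5.77, 5.29, 5.31 and 4.85 in the SON. In neither strain did a SON array overlap a PVN array. The difference was 0.83 in WKY (SE 0.14, limma adjusted p = 1.65e-04) and 0.74 in SHR (SE 0.15, limma adjusted p = 8.68e-04), 1.78-fold and 1.67-fold. Nos3 passed the filter on low signals only through the SON, where it is high. Without any filter its adjusted p was 7.52e-04 in WKY and 0.00290 in SHR, and by the methods' t-test in SHR it was 0.0999. The nuclei differ broadly, since 26.9% of the 17095 probe sets tested passed in WKY and 29.4% in SHR, and of the 6 member probe sets tested 2 passed in each strain, Nos3 and Ass1.

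Nos3 did not pass between the strains. In the SON the difference was -0.08 (SE 0.18, limma adjusted p = 0.851), and the interaction was -0.09 (limma adjusted p = 0.963). In the PVN Nos3 lay below the filter, with strain means of 4.55 ± 0.15 (SD, n = 5) in WKY and 4.57 ± 0.10 (SD, n = 5) in SHR.

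The endothelial marker genes were measured beside Nos3. Of the 11 on the array, 5 were higher and 1 lower in the SON in WKY, and 4 were higher and 1 lower in SHR, with median differences of 0.30 and 0.31 against -0.01 and -0.02 over all probe sets tested. Von Willebrand factor (Vwf), a clotting protein of endothelium, differed by 1.53 in WKY and 1.83 in SHR. Tek, an angiopoietin receptor, differed by 0.70 in WKY and 0.55 in SHR. Slc2a1, the glucose transporter of the blood-brain barrier, ran the other way, at -0.61 and -0.79. Pecam1 and Flt1 did not pass in either strain. The summed endothelial level was 10.78 to 11.09 on PVN arrays and 11.07 to 11.60 on SON arrays. Meningeal fibroblast markers also moved with the nucleus, from 8.34 to 8.65 in the PVN to 11.05 to 12.71 in the SON, and the PVN range of the mural cell markers was 8.19 to 8.42 beside a SON range of 8.35 to 10.02. The part of these cells in the Nos3 difference was not tested.

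**Figure D3:**
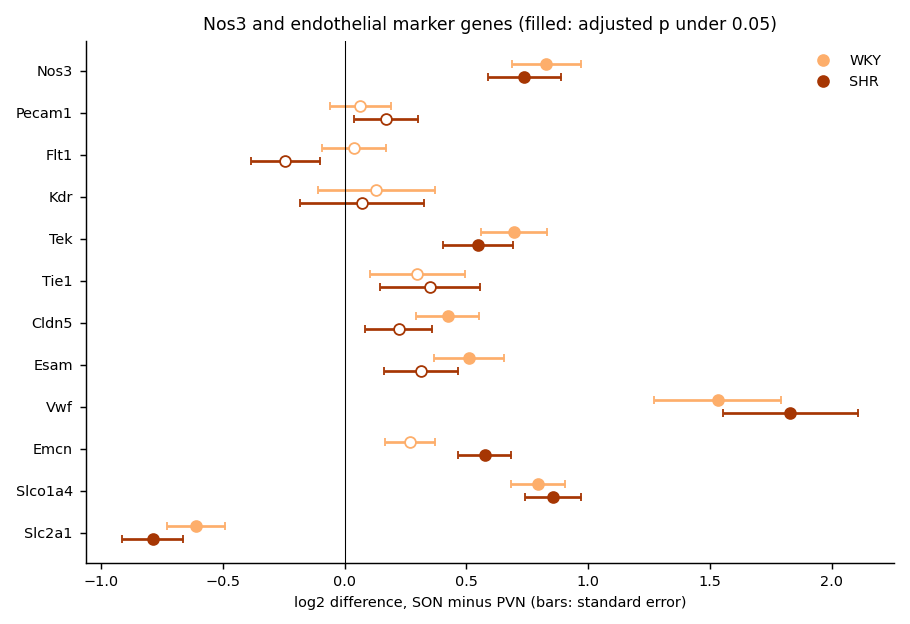
Log2 difference between SON and PVN (horizontal axis, bars are standard errors) for Nos3 and 11 endothelial marker genes in WKY and SHR, filled where the adjusted p was under 0.05. Nos3 at 0.83 and 0.74 lies beside Tek and Slco1a4, with Vwf above it and Slc2a1 below 0.

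Nos1, the neuronal synthase, gave low signals in every group and did not reach the filter in any fit. The WKY arrays read 4.52, 4.01, 4.68, 4.48 and 4.46 in the PVN and 3.96, 4.37, 1.91, 4.87 and 5.01 in the SON, where 1.91 is the floor. The SHR arrays read 3.18, 4.56, 4.66, 4.90 and 4.22 in the PVN and 4.47, 4.57, 4.23 and 4.14 in the SON. All 4 groups overlapped. When the filter was left out, the limma adjusted p lay between 0.629 and 0.991 over the 5 comparisons. A difference in Nos1 was not detectable with its single probe set. The inducible synthase Nos2, which is not a member, had means of 5.97 in WKY PVN, 5.62 in SHR PVN, 6.05 in WKY SON and 6.46 in SHR SON and passed in none of the 5 comparisons.

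Gch1, which opens cofactor synthesis, has 2 probe sets, which gave like differences between the nuclei in SHR and unlike ones in the other comparisons. The probe set 1387221_at, whose accession is that of Gch1, read 5.65, 5.11, 5.26, 5.03 and 5.38 in WKY PVN and 4.18, 3.76, 4.04, 3.60 and 2.26 in WKY SON. In SHR it read 5.56, 4.78, 4.41, 5.15 and 5.11 in the PVN and 4.00, 4.01, 4.25 and 4.10 in the SON. The nuclei did not overlap in either strain, with SON minus PVN differences of -1.72 in WKY and -0.91 in SHR. Its highest group mean, 5.29, lay just under the filter threshold of 5.32, so it was not tested in the main fit. Without the filter the limma adjusted p was 5.84e-04 in WKY and 0.0554 in SHR. The strain differences of 1387221_at were -0.29 in the PVN and 0.52 in the SON. The probe set 1368503_at, dimmer and with no accession in the annotation, gave 0.13 in WKY and -0.81 in SHR for SON minus PVN, with 1 SHR SON array at the floor and no overlap between the nuclei in SHR. Its strain differences were 0.27 in the PVN and -0.67 in the SON. The Gch1 feedback regulator Gchfr had SON minus PVN differences of -0.50 in WKY (limma adjusted p = 0.205) and -0.87 in SHR (limma adjusted p = 0.0339). With group means of 5.23 in WKY PVN, 5.36 in SHR PVN, 4.73 in WKY SON and 4.49 in SHR SON, it passed the filter only through the SHR PVN, the high group of the SHR comparison. The SHR call stood in 18 of 25 other settings and was lost without PVN array 2 or 5 or SON array 3 or 4 of that strain, with a value of -0.57 (limma adjusted p = 0.159) without SON array 4.

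Ddah1 and Ddah2, which clear methylarginine inhibitors, passed in none of the comparisons. Ddah1 read from 8.21 to 8.89 over the 19 arrays. Its SON strain difference was -0.26 (SE 0.11, limma adjusted p = 0.233), with an unadjusted p under 0.05, and its PVN difference was 0.06 (limma adjusted p = 0.886). Ddah2 read from 6.54 to 7.35, with strain differences of -0.09 in the PVN and -0.01 in the SON. Its SON minus PVN differences were 0.19 in WKY and 0.26 in SHR, with limma adjusted p values of 0.279 and 0.138. In the PVN, 0 of the 5 member probe sets tested passed between strains by limma, against 2.36% of all 16104 by limma. Of these 5, 1, Asl 1368916_at, had an unadjusted p under 0.05. By the methods' t-test 0 passed, and no share of all probe sets is given for that test.

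The wider pathway was read from 5 lists of 50 genes, of which 41 had a probe set with a single symbol. They hold proteins that bind the synthases, arginine transporters and competing arginine enzymes, the methyltransferases that make methylarginines, tetrahydrobiopterin enzymes, and receptors, kinases and phosphodiesterases of cyclic GMP, the messenger that nitric oxide raises. In the SON, 5 of the 29 genes tested were lower in SHR and 0 higher, beside 2.33% lower and 1.29% higher over all probe sets tested, with a median difference of -0.11 against -0.04. In the PVN 0 of 30 passed by limma, beside 2.36% of all. There 3 genes, Gucy1b1, Qdpr and Slc7a1, had an unadjusted p under 0.05, all lower in SHR. The interaction passed for 0 of 30, beside 0.0819% of all, with 2 at an unadjusted p under 0.05.

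Pde2a, a phosphodiesterase that cyclic GMP itself activates, had the smallest adjusted p of the 5. It read 9.00, 9.05, 8.83, 9.04 and 8.74 in WKY SON and 8.41, 8.14, 8.10 and 8.17 in SHR SON, with no overlap. The difference was -0.73 (SE 0.11, limma adjusted p = 0.00282) and passed in all 18 other settings. In WKY Pde2a was higher in the SON than in the PVN, by 0.76 (limma adjusted p = 1.03e-05), on the same WKY SON arrays. In SHR the nucleus difference was 0.12 (limma adjusted p = 0.417).

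The other 4 genes lay nearer the threshold. Qdpr, which regenerates tetrahydrobiopterin, read 10.38, 10.51, 10.18, 10.34 and 10.29 in WKY SON and 9.82, 9.97, 9.55 and 9.84 in SHR SON. Its difference of -0.54 (limma adjusted p = 0.0190) passed in 13 of 18 other settings, and was lost without SHR array 3 (0.0688) or WKY array 2 (0.0537). Slc7a1, a cationic amino acid transporter that carries arginine into cells, differed by -0.46 (limma adjusted p = 0.0335). It passed in 8 of 18 other settings, and its probe set 1368392_at gave -0.19 (limma adjusted p = 0.337). Arg1, an arginase that uses arginine up, differed by -0.45 (limma adjusted p = 0.0338) and passed in 6 of 18. Carm1, a methyltransferase that makes asymmetric dimethylarginine in proteins, differed by -0.54 (limma adjusted p = 0.0347) and passed in 7 of 18. Among the 9 fits that each left out a SON array, Slc7a1 kept its call only without WKY array 3 or 5, Arg1 only without WKY array 3 or 5 or SHR array 4, and Carm1 only without WKY array 3 or SHR array 1. The adjusted p reached 0.0855, 0.0892 and 0.115 in these fits. The 5 were named because they passed on these SON arrays, so their lack of overlap between the strains there adds no support. They hold both a carrier that brings arginine in (Slc7a1) and an enzyme that uses it (Arg1). Their PVN strain differences were also below 0 and did not pass, with Qdpr at -0.33 (limma adjusted p = 0.221) and Slc7a1 at -0.28 (limma adjusted p = 0.225). None of their interactions passed, with limma adjusted p from 0.182 for Pde2a to 0.853 for Qdpr, so none is shown to be particular to the SON.

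**Figure D4:**
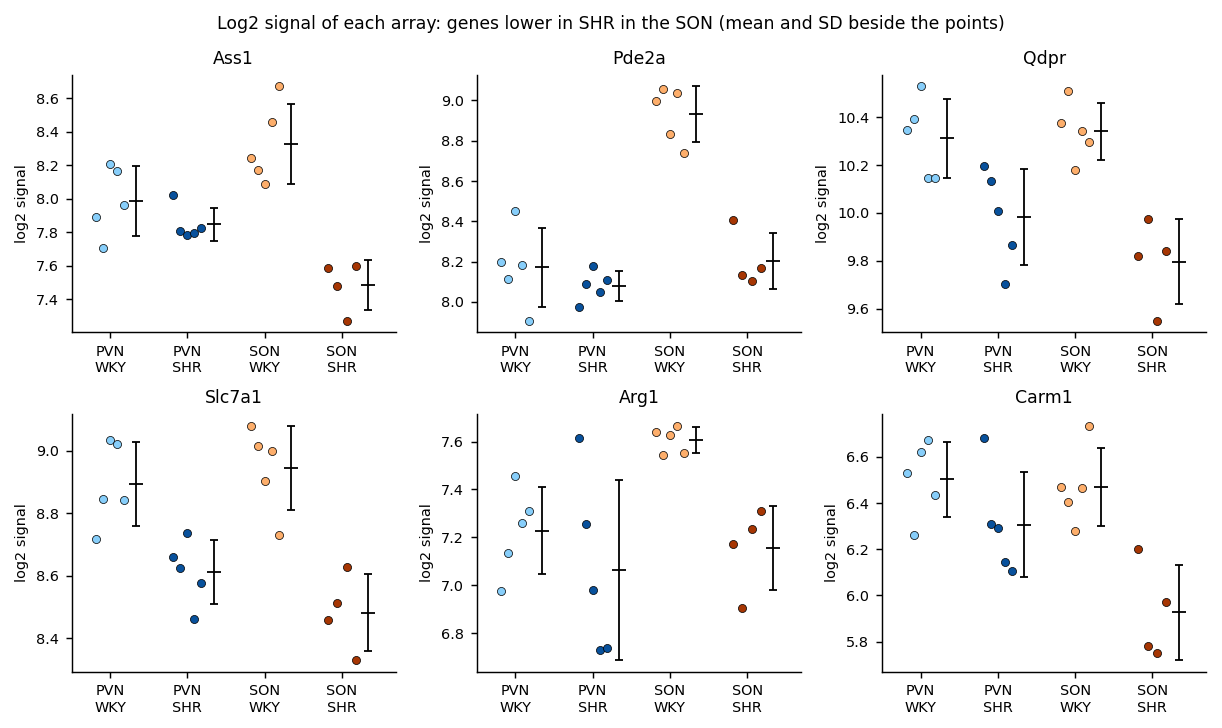
Log2 signal (vertical axis, own range in each panel) of every array for Ass1 and the 5 pathway genes that were lower in SHR in the SON, in the 4 groups, with mean and SD beside the points. In each panel the SHR SON arrays lie below all WKY SON arrays, but the 5 pathway genes were shown because they passed on these arrays. The PVN strains overlap, with a lower SHR mean there too.

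**Figure D5:**
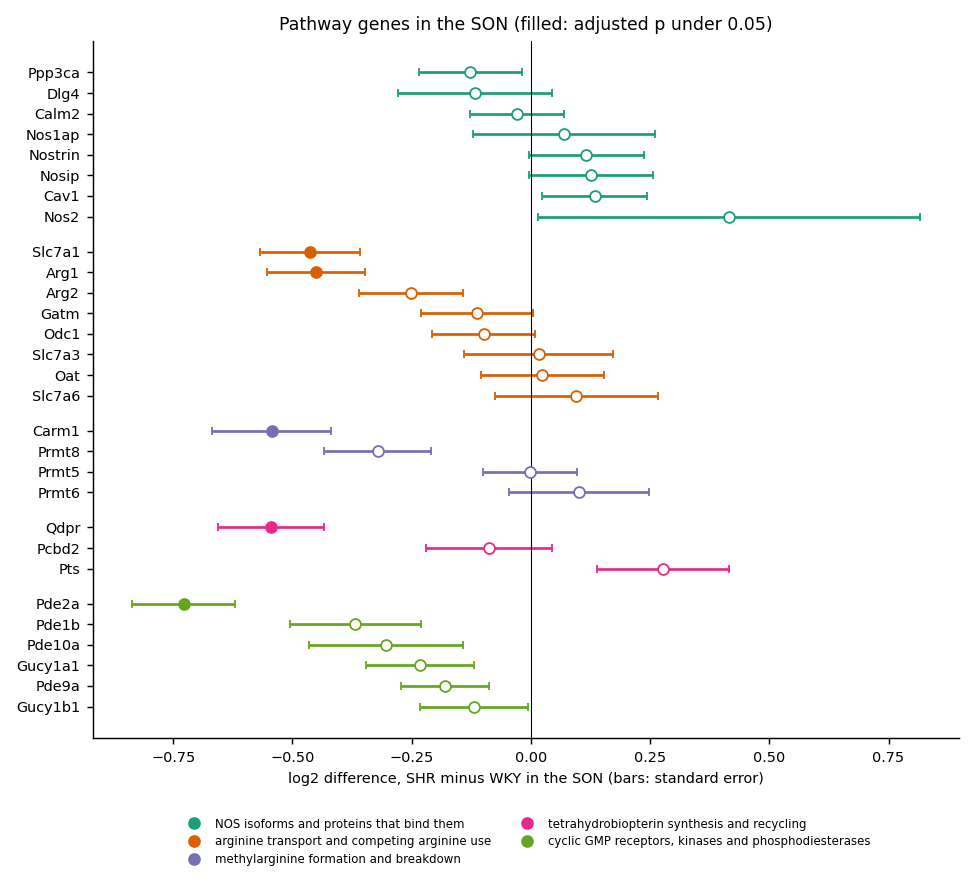
Log2 difference between SHR and WKY in the SON (horizontal axis, bars are standard errors) of the 29 pathway genes tested, coloured by list, filled where the adjusted p was under 0.05. The 5 filled points, Pde2a, Qdpr, Carm1, Slc7a1 and Arg1, lie between -0.73 and -0.45.

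Between the nuclei, 7 of the 30 pathway genes tested passed in WKY and 8 in SHR, shares no higher than the 26.9% and 29.4% of all probe sets. In WKY 5 were higher and 2 lower in the SON, with Pde2a and Gucy1a1, a subunit of the nitric oxide receptor guanylate cyclase (0.63, limma adjusted p = 6.28e-04), among the higher. Arg2, an arginase, was higher by 0.40 (limma adjusted p = 0.0160) and Prmt8, a methyltransferase, by 0.45 (limma adjusted p = 0.0189). Arg2 and Prmt8 did not pass in SHR, at 0.10 and 0.22 (limma adjusted p of 0.594 and 0.272). In SHR 3 were higher and 5 lower. Among the lower were Pde1b, from the cyclic GMP list, at -0.48 (limma adjusted p = 0.0136), and Carm1 at -0.38 (limma adjusted p = 0.0330). Ppp3ca, from the list of proteins that bind the synthases, was lower too, at -0.38 (limma adjusted p = 0.0138). Gucy1a1 at 0.45 and Gucy1b1, its partner subunit, at 0.41 were among the higher. The other Gucy1b1 probe set, 1369097_s_at, gave 0.24 there (limma adjusted p = 0.177). The other Gucy1a1 probe set, 1387079_at, lay below the filter and gave 0.37 in WKY and -0.14 in SHR. The brightest probe set of Dlg4, the scaffold that holds neuronal nitric oxide synthase at synapses, was lower in the SON in both strains, by 0.64 on the log2 scale in WKY and 0.73 in SHR. Its probe sets disagreed, since 1387210_at passed as lower in both strains while 1389901_at gave 0.11 in WKY and 0.02 in SHR (limma adjusted p of 0.582 and 0.920). Pde9a, a cyclic GMP phosphodiesterase, was higher in both, by 0.47 and 0.38. In WKY Calm2, a calmodulin gene, was lower by 0.23 on the log2 scale (limma adjusted p = 0.0478), in 10 of 28 other settings too.

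Similarity of pattern was described by Pearson's r over the 19 arrays among 10219 genes, in which group differences take part. The genes most like Ass1 were Sec23b (r = 0.85), Carm1 (0.84) and Nrsn1 (0.84). When each group's mean was removed, Carm1 kept r = 0.80, and Sec23b and Nrsn1 had 0.44 and 0.40. Those most like Nos3 were Rab13 (0.92), Fxyd5 (0.91) and Rbp4 (0.91), with 0.58, 0.61 and 0.56 once group means were removed. Those most like Ddah1 were Exoc6b (0.86), Tprg1l (0.82) and Letm1 (0.82), with 0.85, 0.79 and 0.83 after that removal. Those most like Ddah2 were Ctsb (0.86), Tcn2 (0.83) and Ckap4 (0.82), with 0.80, 0.77 and 0.75.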

How the data were processed

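The deposited values are intensities, MAS 5.0 signals the authors made per array on a linear scale. The GeneSpring normalisation and present-call filter of the study's methods are not in them. Of 31099 probe sets, 57 controls were left out. Arrays were set to equal medians, signals below 3.77 (the 10th percentile, log2 1.91) were raised to that floor, and log2 was taken. Symbols came from the platform annotation, updated through Entrez numbers, and a single symbol was left for 20826. A probe set was tested where at least 1 group mean reached the median probe set (log2 5.32 over 4 groups). Strains were compared within each nucleus, and nuclei and the interaction in a fit of all 4 groups, by two-sided moderated tests (R 4.3.3, limma 3.58.1, functions lmFit and eBayes) and Benjamini-Hochberg adjustment over all probe sets tested. Passed means an adjusted p under 0.05. The number of arrays limits the precision. List genes were read from their brightest probe set. All members are named, and of the pathway lists Nos2 and up to 4 passing genes per list. Members, lists and rules were chosen with earlier results of these data known. Tests were tried on simulated data. Alternatives covered scaling, filter, pseudocount 16, samples in the fit, a replicate block, array weights, the methods' t-test and leaving out each array.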

Additional observations from a re-analysis of the deposited data

Results flagged for a closer look

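A pair of arrays stood apart from the rest of their group, among 36 groups of 4 or 5 arrays examined over the member probe sets, and chance marks about 1 in 20 groups. Ass1 was highest on SHR PVN array 1, at a log2 signal of 8.02, where the next array read 7.83 and the lowest 7.79, so its gap was 0.821 of the group's range. The dim Gch1 probe set 1368503_at was lowest on WKY PVN array 3, at 3.13, where the next read 3.76 and the highest 3.97, so its gap was 0.758 of the range.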

How the results depend on the processing

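The number of member probe sets that passed was 0 for the strains in the PVN, 1 in the SON and 0 for the interaction under every alternative run. For SON against PVN in WKY it was 2 and became 1 with the stricter filter, with only those 2 groups in the fit, with a replicate block and with the methods' t-test, and ranged from 1 to 3 when single arrays were left out. In SHR it was 2 and became 1 without the filter, with the stricter filter, with only 2 groups and with the replicate block, 0 with the t-test and 3 with array weights, where Ddah2 also passed, and ranged from 1 to 3 when single arrays were left out. The stricter filter removes Nos3, and in SHR so does the filter of the fit with only 2 groups. Deviations of same-numbered arrays correlated between the strains at -0.226 to 0.0799 in the PVN and -0.0144 to 0.104 in the SON. Between the nuclei the correlations were -0.00909 to -0.00113 in WKY and 0.0351 to 0.174 in SHR. Between the SHR nuclei, arrays 1, 2 and 4 matched their own number best, as they did between the strains in the SON. The labels do not give pairs, so the main fits did not use the numbers, and a pairing of the SHR nuclei stays possible. Of 1217 alternative values of members and pathway genes, 1086 kept direction and side of the threshold, 104 lost the call, 9 gained it and 18 changed sign, and 0 of the 25 passed differences changed sign. The sign changes were in small differences. For Ddah2 between strains in the SON the value became 0.050 on the deposited scale, 0.017 with quantile scaling, 0.018 with the replicate block and 0.023 with array weights. Array weights gave 0.00044 for Nos3 between strains in the SON, -0.031 for Asl 1367754_s_at between nuclei in SHR and 0.067 for the Asl 1368916_at interaction. When single arrays were left out, Asl 1367754_s_at ran from -0.086 to 0.26 between strains in the PVN, from -0.18 to 0.17 between nuclei in SHR and from -0.089 to 0.26 for the interaction. Ddah1 ran from -0.023 to 0.12 between strains in the PVN, Ddah2 from -0.11 to 0.098 between strains in the SON and from -0.026 to 0.19 for the interaction, and Nos3 from -0.23 to 0.075 between strains in the SON and from -0.25 to 0.061 for the interaction. Causes were not tested. Low signals limit Nos1 and Gch1.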
